A study of Kluyveromyces marxianus with 6 samples.

Results

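Late exponential (LE) growth was compared with early exponential (EE) growth in the thermotolerant yeast Kluyveromyces marxianus var. marxianus ATCC 36907 (KM7), over the whole set of transcribed fragments (transfrags) of the strand-specific RNA-seq series. All 14298 of 14298 transfrags were members, since each had an entry in both growth phases, and 4 of the 6 libraries contributed to them. The entry was 0 for 1248 transfrags in LE and for 415 in EE. The LE cultures were taken at an optical density of about 10 (2 libraries) and the EE cultures at about 3 (2 libraries). The phase between them, mid exponential (ME) at about 7 (2 libraries), is given where it places a change. All cultures were the same unmodified strain and grew in a shaking incubator at 30 °C in synthetic medium with 2% dextrose and no uracil, and the labels give no other difference between the phases. The levels are normalized reads, and each is the authors' mean over the 2 libraries of its phase. The spread between cultures is therefore not in the values, and no change below carries a test or a p-value.

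K. marxianus takes up sugar through hexose transporters and can both respire pyruvate in the mitochondria and ferment it to ethanol. As a batch culture grows dense, glucose, oxygen and other nutrients are drawn down. In the better studied yeasts S. cerevisiae and K. lactis this is the time when low-affinity hexose transporters give way to other carrier proteins, genes for the use of other carbon sources are derepressed, and the demand for ribosomes and cell-cycle proteins declines as division slows.

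The deposited signal of 1 read can be read from the steps between low levels, which were whole multiples of 2 values in each phase (97.0% of low levels in EE and 99.0% in LE lay on them). From these steps an estimated 13757500 reads lay on the transfrags in LE, against 4411520 in EE. The mapped reads that the paper gives were more numerous in both phases and differed less between LE and EE than these estimates. The reason was not tested. A level of 3 reads was 1.19 in LE and 4.00 in EE, so low levels were less precise in EE. The counting standard error (SE) quoted with a change comes from these depths and covers counting only. Low levels, up to 3 in LE and 12 in EE, could mostly be split into the reads of both libraries. There the variance between libraries was 1.60 times the counting variance in LE and 2.32 times in EE. At higher levels the spread between libraries was not measured, so a small SE there does not bound it. Directions depend on the scale. On the deposited scale the median log2 change was 0.75 where LE and EE averaged 10 or more. Scaling by the mapped reads of the libraries would add 0.77 to every log2 change, scaling to equal summed levels would take away 0.19, and centring on that median would take away 0.75.

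Of all 14298 transfrags, 3858 were at least 2-fold higher in LE (27%) and 6110 at least 2-fold lower (42.7%), with the change taken as log2((LE + 1)/(EE + 1)). From here on, rose and fell stand for a change of at least 2-fold. The log2 changes ran from -5.38 to 7.61 with a median of -0.62. The excess of falls lay in the weakly transcribed fragments. Among the 6291 transfrags for which LE and EE averaged 10 or more, 2904 rose (46.2%) and 1557 fell (24.7%). By scaling, the share of rises among all changes over all levels was 38.7% as deposited, 57.8% with mapped reads, 34.6% with equal summed levels and 24.4% after centring on the median.

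The RNA classes differed in their counts on the deposited scale. Over all levels 1981 of 5785 mRNAs rose (34.2%) and 2151 fell (37.2%). The mRNAs of mean level 10 or more (4050) rose in 1879 cases (46.4%) and fell in 1094 (27%), with a median log2 change of 0.75. The lancRNAs, which are long noncoding RNAs antisense to genes, had the highest median, 1.31 over 1439 transfrags, and 817 rose (56.8%) against 204 that fell (14.2%). Over all levels 1140 of 3067 lancRNAs rose (37.2%) and 876 fell (28.6%). Among 720 lincRNAs, the long noncoding RNAs between genes, 186 rose (25.8%) and 219 fell (30.4%), with a median of -0.18. Over all levels 321 of 1430 lincRNAs rose (22.4%) and 513 fell (35.9%). The short classes lay almost wholly under the level limit: of 2726 sancRNAs (short, antisense) 1798 fell over all levels (66%) and 283 rose (10.4%), and of 1290 sincRNAs (short, intergenic) 772 fell (59.8%) and 133 rose (10.3%). Above it, 13 of 39 sancRNAs rose (33.3%) and 15 fell (38.5%), and 9 of 43 sincRNAs rose (20.9%) and 25 fell (58.1%). Under the limit the direction cannot be told apart from the lower depth of EE, where a single read alone amounted to a level of 0.71 or 1.33.

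**Figure D1:**
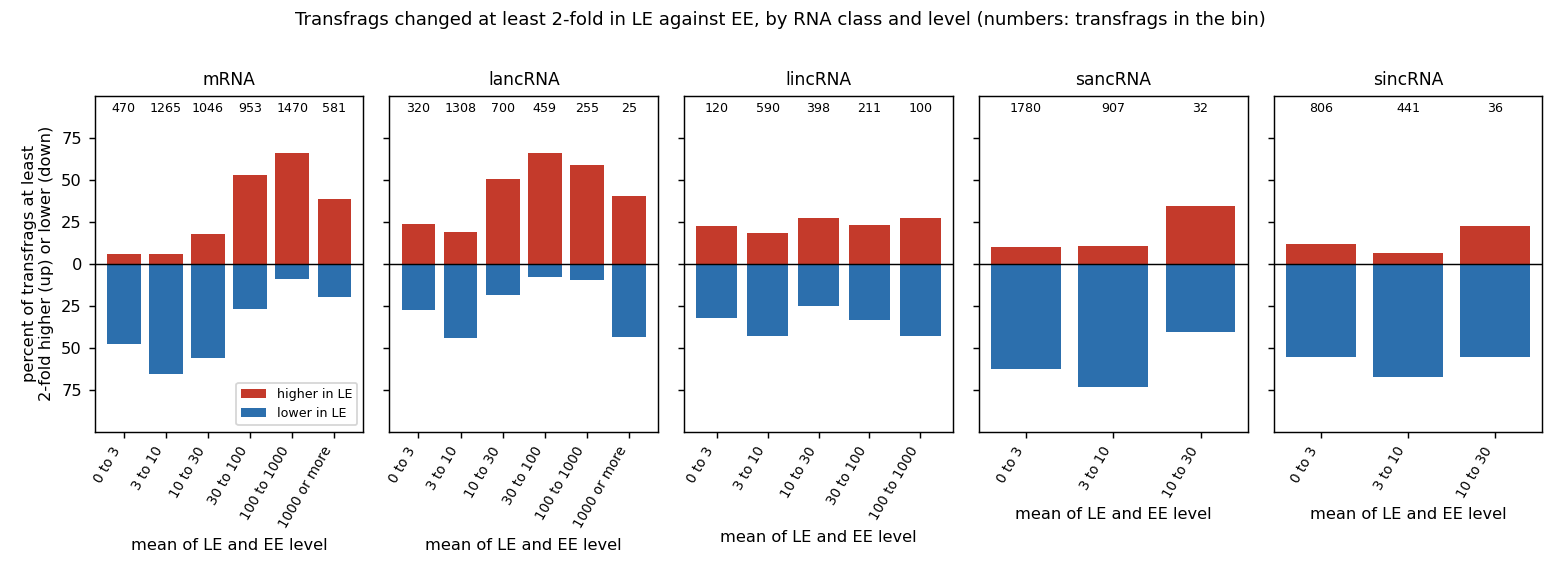
Percent of transfrags at least 2-fold higher (up, red) or lower (down, blue) in LE against EE, in bins of the mean of the LE and EE levels (normalized reads), by RNA class, with the number of transfrags above each bin. Among mRNAs the share that rose grew to 66.0% at levels of 100 to 1000 and was 38.2% at 1000 or more, and 65.7% fell at levels of 3 to 10.

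The mRNA levels were spread wider in LE than in EE. Over all 5785 mRNA transfrags the quartiles were 3.66 and 319 in LE, with a median of 29.4, against 8.79 and 106 in EE, with a median of 24.1. Transfrags that had a similar level in EE parted into an upper and a lower set in LE. Of the 1156 mRNAs with an EE level of 30 to 100, 206 had a log2 change of 2 to 3 and 245 one of -2 to -1, but only 107 lay between -1 and 0 and 108 between 0 and 1, with a median counting SE of 0.24. At an EE level of 300 to 1000 a single set remained, and 47.5% of 427 mRNAs stayed within 2-fold. The strongest signals were less dominant in LE: the 100 highest transfrags of each phase held 48.9% of the summed level in LE and 62.1% in EE, and the 10 highest 19.5% in LE and 29.0% in EE.

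**Figure D2:**
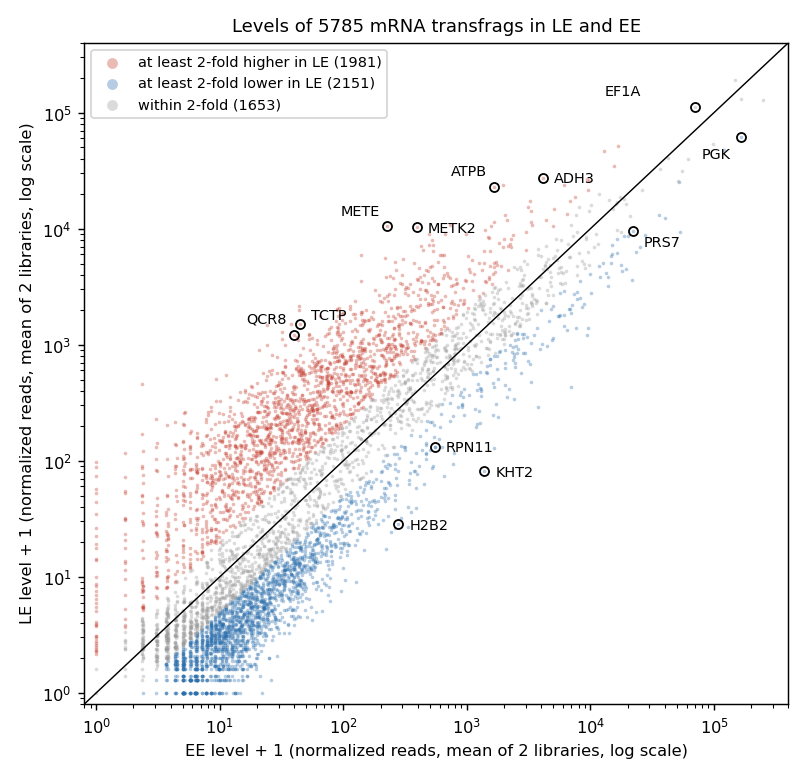
LE level + 1 (vertical) against EE level + 1 (horizontal) of all 5785 mRNA transfrags, in normalized reads on log axes, with the 1981 that were at least 2-fold higher in LE in red, the 2151 that were at least 2-fold lower in blue and the others in grey. Named circles are transfrags covering at least 90% of their gene, and the red and blue clouds stand apart at EE levels of about 10 to 100.

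A transfrag is not always a gene, and this bears on every name below. Names are those of the closest homolog in the study's gene table as far as it was held here (for example METE_YEAST, written METE). Of 5785 mRNA transfrags 2246, from 1500 genes, had one, so the lists below can hold only part of a gene family or pathway. Of these transfrags 788 rose (35.1%) and 793 fell (35.3%), with a median log2 change of -0.17, and of the 1598 with a mean level of 10 or more 746 rose (46.7%) and 399 fell (25%). Summed per gene, 626 of 1500 genes rose (41.7%) and 418 fell (27.9%). The 502 transfrags that covered at least 90% of a named gene rose in 223 cases (44.4%) and fell in 103 (20.5%), with a median of 0.77, whereas of 354 mRNA transfrags covering less than 10% of their gene 42 rose and 197 fell. At a mean level of 10 or more, 26 of 76 such pieces rose and 25 fell. Pieces of 1 gene often disagreed. In 268 genes with at least 2 mRNA transfrags of mean level 10 or more, the changes within a gene spanned a median log2 range of 2.62, and in 88 of them 1 piece rose and another fell. In 488 genes with at least 2 pieces of any level, the piece with the highest level had the higher change in 335, by a median of 1.19 on the log2 scale, while the 3′ piece exceeded the 5′ piece in 241. The share of the gene covered is therefore given for many pieces, but not for all. An entry without a share is not necessarily a whole gene.

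Among transfrags that covered at least 90% of a named gene, the largest rises included genes of methionine synthesis and of the respiratory chain (whole-gene transfrags were singled out with their values already seen). METE, the methionine synthase that forms methionine from homocysteine, stood at 10444 in LE, against 225 in EE (log2 change 5.53, counting SE 0.10). METK2, which turns methionine into S-adenosylmethionine, followed at 10288 in LE, against 392 in EE (log2 change 4.71, counting SE 0.07). TCTP, the homolog of the translationally controlled tumour protein, was at 1504 in LE, against 44.0 in EE (log2 change 5.07). METE and METK2 lay above the upper quartile of the mRNA levels in EE already, and TCTP below it. QCR8, a subunit of the cytochrome bc1 complex, was at 1222 in LE, against 39.1 in EE (log2 change 4.93, counting SE 0.23). ALDH6, the cytosolic acetaldehyde dehydrogenase of S. cerevisiae, was at 1141 in LE, against 54.5 in EE (log2 change 4.36), and TRXB, thioredoxin reductase, at 1359 in LE, against 76.0 in EE (log2 change 4.14). Peptidases were among them too: CBPS, the vacuolar carboxypeptidase S, was at 1890.2 in LE, against 99.0 in EE, and DPP3, a dipeptidyl peptidase, at 2022 in LE, against 113 in EE. The siderophore transporter ARN1 was at 9028 in LE, against 496 in EE and the arginine synthesis enzyme ASSY at 8021 in LE, against 516 in EE. The largest rise of this kind was that of YQJC, named after an S. pombe protein, at 1477 in LE, against 23.0 in EE (log2 change 5.95, counting SE 0.29).

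The largest fall among whole-gene transfrags was that of the hexose transporter KHT2, for which the K. lactis homolog is a glucose carrier. Its transfrag covered the whole gene model (contig 26, 2363 to 3682, 1320 bp). It was at 80.1 in LE, against 1384 in EE (log2 change -4.09, counting SE 0.10), and it had already dropped to 203 in ME. Whether this gene model is complete was not tested. Nor was it tested how reads of similar transporter copies were assigned, and the paper placed reads with several matches at random. GSF2, which in S. cerevisiae helps hexose transporters leave the endoplasmic reticulum, was at 61.8 in LE, against 446 in EE (log2 change -2.83). GCR1, named after the activator of glycolytic genes in S. cerevisiae, was at 6.78 in LE, against 59.3 in EE (log2 change -2.95, counting SE 0.34). Its transfrag lay at the start of a contig (contig 85, 53 to 660), and whether the gene model there is complete was not tested. The kinase gene SKS1, which in S. cerevisiae serves growth on little glucose, was at 27.6 in LE, against 188 in EE. Regulators of budding and the cell cycle were among the falls. RSR1, the Ras-like GTPase of bud-site choice, was at 340.4 in LE, against 2420.5 in EE (log2 change -2.83), PCL1, a G1 cyclin of the Pho85 kinase, at 676 in LE, against 3230.0 in EE (log2 change -2.26), and ACM1, an inhibitor of the anaphase-promoting complex, at 237 in LE, against 1776 in EE (log2 change -2.90). PEX21, the co-receptor for peroxisomal import through Pex7, was at 354 in LE, against 2100.5 in EE, and GNP1, a glutamine permease, at 80.2 in LE, against 377 in EE. YQK1, at 73.5 in LE, against 654 in EE, and KAR, at 38.9 in LE, against 329.5 in EE, are named only.

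Over all named mRNAs of mean level 10 or more, taking for each gene the piece with the highest level whatever share it covered, the extremes were mostly pieces with few reads in one phase. The largest rise, that of YP039, covered 36.3% of its gene and was at 454 in LE, against 1.33 in EE, a single read, for a ratio of 341 with a 95% counting interval of 61.2 to 13472. The other piece, with 52.3% of the gene, fell (9.87 in LE, against 42.3 in EE). The pieces of HTL1, AMO1 and IRS4 had no read in EE and were at least 24.0-fold, 18.1-fold and 13.0-fold higher in LE against the level of 3 reads over both EE libraries. Those of RPC2 (11.02% of the gene), SIP3 (9.22%), HAL5 (19.5%) and YNF8 (52.0%) had 1 to 3 reads in EE. RPC2, a large subunit of RNA polymerase III, had further pieces that went both ways: one was at 154 in LE, against 24.8 in EE, whereas another was at 1.59 in LE, against 6.75 in EE. Rises with more reads in EE were NBP35, an iron-sulphur cluster assembly factor, at 256 in LE, against 4.16 in EE with 53.5% of the gene covered, and SEC16, which organizes the exit sites of the endoplasmic reticulum, at 994 in LE, against 23.3 in EE with 20.9%. Of the falls, all 3 pieces of ERG5, the sterol C-22 desaturase, were lower by at least 2-fold, at 23.1 in LE, against 242 in EE, at 6.58 in LE, against 95.1 in EE and at 5.03 in LE, against 11.5 in EE. A piece of BRO1, of endosomal sorting, with 18.3% of the gene had 3 reads in LE, and its level was 25.5 times as high in EE (95% counting interval 8.72 to 124). The other BRO1 pieces were at 2.56 in LE, against 10.99 in EE, and at 8.28 in LE, against 12.3 in EE. RLF2, a subunit of the chromatin assembly factor, was at 5.22 in LE, against 76.4 in EE in a piece of 13%, while another piece was at 30.4 in LE, against 21.0 in EE. Falls were also seen in pieces of the replication and repair genes MRC1 (1.87 in LE, against 22.1 in EE) and RT107 (92.9 in LE, against 772 in EE), of LEUR, the regulator of leucine synthesis (2.57 in LE, against 28.4 in EE), of RAV1, an assembly factor of the vacuolar ATPase (3.63 in LE, against 41.9 in EE), of CLU (16.2 in LE, against 146 in EE), of VPS30 (1.18 in LE, against 19.5 in EE) and of MVP1 (6.70 in LE, against 64.8 in EE), with between 12.6% and 42.9% of the gene covered.

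The list counts from here on stand beside 35.1% rises and 35.3% falls over all named mRNAs, with a median of -0.17. At a mean level of 10 or more these shares were 46.7% and 25%, with a median of 0.78. Glycolysis genes changed in both directions. Of 10 transfrags, 3 rose and 1 fell, with a median log2 change of 0.70 that turned to -0.05 after centring. Both phosphofructokinase subunits rose, K6PF1 at 18786 in LE, against 7442 in EE (log2 change 1.34) and K6PF2 at 13478 in LE, against 6513 in EE (log2 change 1.05), and the hexokinase HXK was at 3148 in LE, against 1679.9 in EE (log2 change 0.91), while the glucokinase HXKG was at 1054 in LE, against 1532 in EE (log2 change -0.54). PGK, phosphoglycerate kinase, was at 61544 in LE, against 165744 in EE (log2 change -1.43) and was the only fall, ENO, enolase, was at 53554 in LE, against 97608 in EE (log2 change -0.87), and G3P3, glyceraldehyde-3-phosphate dehydrogenase, at 130727 in LE, against 165700 in EE (log2 change -0.34). KPYK, pyruvate kinase, rose, at 5882 in LE, against 645 in EE (log2 change 3.19). The summed level of the 10 transfrags was 293146 in LE and 449716 in EE.

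Most of the listed transfrags of ethanol and acetate formation and of the respiratory chain rose. PDC1, pyruvate decarboxylase, was at 21405 in LE, against 9537 in EE (log2 change 1.17). ADH3, the mitochondrial alcohol dehydrogenase of K. lactis, was at 27399 in LE, against 4146 in EE (log2 change 2.72, counting SE 0.02). With ALDH6 3 of the 4 transfrags of ethanol and acetate formation rose. The other, ALDH4, fell at a low level (1.19 in LE, against 6.75 in EE). The list held only part of the ADH homologs that the paper reports, among which the paper describes a repressed sense strand. Of 10 transfrags of the respiratory chain and the ATP synthase, all of mean level 10 or more, 8 rose and 2 fell. Their median log2 change was 2.82, against 0.78 over all named mRNAs of that level, of which 46.7% rose and 25% fell. Under the 3 other scalings the list's median stayed between 2.07 and 3.59. The ATP synthase subunits ATPB, at 22793 in LE, against 1655 in EE (log2 change 3.78), ATPF, at 1502 in LE, against 91.3 in EE (log2 change 4.03), and ATP7, at 1638 in LE, against 146 in EE (log2 change 3.48), rose with QCR8 and with UCRI, the Rieske iron-sulphur protein, at 1108 in LE, against 365 in EE. UCRI stood at only 192 in ME. The exceptions were QCR7, another subunit of the bc1 complex, at 27.4 in LE, against 81.2 in EE (log2 change -1.53), and ATP19, a small subunit of the synthase, at 10.7 in LE, against 38.9 in EE (log2 change -1.77). Both covered their whole gene. NDH1, an external NADH dehydrogenase, was at 646 in LE, against 143 in EE, and both pieces of NDI1, the internal one, rose.

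The tricarboxylic acid cycle was mixed. Of 11 transfrags with pyruvate dehydrogenase, 5 rose and 2 fell (median log2 change 0.64, or -0.11 after centring). FUMH, fumarase, was at 3979 in LE, against 297 in EE (log2 change 3.74), DLDH, the lipoamide dehydrogenase that both 2-oxo acid dehydrogenases share, at 3426 in LE, against 284 in EE (log2 change 3.59), and ODO1, of oxoglutarate dehydrogenase, at 1482 in LE, against 538 in EE. In contrast ODPX, a structural component of pyruvate dehydrogenase, was at 971 in LE, against 4429 in EE (log2 change -2.19), and DHSB, the iron-sulphur subunit of succinate dehydrogenase, at 61.0 in LE, against 272 in EE (log2 change -2.14). The acetyl transferase of pyruvate dehydrogenase, ODP2, was at 3227 in LE, against 4750 in EE, and the aconitase ACON2 at 1135 in LE, against 1738 in EE, both within 2-fold.

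Genes for carbon sources other than hexoses rose as a list. Of 17 transfrags, 12 rose and 1 fell, with a median log2 change of 2.02 that lay between 1.27 and 2.78 under the other scalings. GLPK, glycerol kinase, covered its whole gene and was at 8466 in LE, against 1482 in EE (log2 change 2.51), SFC1, the mitochondrial succinate-fumarate carrier, was at 713 in LE, against 60.3 in EE (log2 change 3.54), and CYB2, the lactate dehydrogenase of the intermembrane space, at 998 in LE, against 182 in EE (log2 change 2.45). STL1, the glycerol carrier of S. cerevisiae that was listed with the sugar transporters, was at 3771 in LE, against 251 in EE (log2 change 3.90). JEN1, the lactate and pyruvate carrier, rose in both of its pieces, at 147 in LE, against 33.4 in EE and 62.5 in LE, against 10.9 in EE. Of F16P, fructose-1,6-bisphosphatase and thus a step that only gluconeogenesis needs, 34.5% of the gene was covered, at 63.0 in LE, against 1.41 in EE, where EE had 2 reads. The ratio was 44.7 with a 95% counting interval of 12.4 to 369. The malate synthase MASY had a main piece at 2700.0 in LE, against 2786 in EE with 86.9% covered. The activator gene CAT8 had a piece that rose (4213 in LE, against 1692 in EE) and one that fell (16.5 in LE, against 66.0 in EE). The 7 pieces named after the K. lactis sugar carrier HGT1 were weak in both phases and had LE levels of 0.59 to 22.0 and EE levels of 2.04 to 10.9.

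The pentose phosphate pathway and the storage carbohydrates gave few changes in common. Of 6 transfrags of the pathway 1 rose, TKT1, transketolase, at 10479 in LE, against 4937 in EE, and 3 fell, among them XKS1, xylulokinase, at 1217 in LE, against 3475 in EE (log2 change -1.51) and GNTK, gluconokinase, at 5.60 in LE, against 49.2 in EE. The median of -0.62 turned to 0.15 when scaled by mapped reads. Of 6 transfrags for glycogen and trehalose 2 rose, the branching enzyme GLGB at 4465 in LE, against 1043 in EE (log2 change 2.10) and UGPA1, which makes UDP-glucose, at 6598 in LE, against 3017 in EE, and 2 fell. One of the falls was the trehalase TREA, at 181 in LE, against 462 in EE (log2 change -1.35). The synthase TPS1 was at 6654 in LE, against 3789.7 in EE, within 2-fold.

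Sulphate assimilation and methionine synthesis mostly rose. Of 10 transfrags 8 rose and 1 fell, with a median log2 change of 2.79, and all 5 that covered at least 90% of their gene rose. Beside METE and METK2 these were MET17, which joins sulphide to homoserine, at 2677 in LE, against 331 in EE (log2 change 3.01), MET16, which reduces activated sulphate, at 286 in LE, against 39.3 in EE (log2 change 2.83), and MET3, which activates it, at 357 in LE, against 97.6 in EE (log2 change 1.86). MET22, a phosphatase of the same pathway, was split: a piece of 18.0% was at 261 in LE, against 4.24 in EE, and one of 42.1% at 7.78 in LE, against 68.3 in EE.

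Amino acid synthesis genes changed in both directions. Of 35 transfrags 13 rose and 14 fell (median -0.47, or 0.29 with mapped reads), summed per gene 13 of 26 rose and 8 fell (median 0.97), and of the 12 that covered their gene 7 rose and 3 fell, with a median of 2.29. Rises came with arginine, as ASSY and ARGJ (1603 in LE, against 384 in EE), with lysine, as LYS12 (398 in LE, against 68.4 in EE) and a whole-gene homocitrate synthase HOSM (8962 in LE, against 973 in EE), though a second HOSM gene in 2 pieces summed to 19.6 in LE, against 103 in EE, with leucine, as LEU1 (2671 in LE, against 254 in EE, log2 change 3.39), with asparagine, as ASNS1 (877 in LE, against 133 in EE), and with DHE5, a glutamate dehydrogenase (1197 in LE, against 90.4 in EE, log2 change 3.71). Falls came with SERB, the last step to serine (749.5 in LE, against 1544 in EE), with P5CR, the last step to proline (1975 in LE, against 3967 in EE), and with HIS8 of histidine synthesis (10.7 in LE, against 45.7 in EE). BCA1, the branched-chain aminotransferase, had the highest level of the list and hardly changed between these phases, at 18799.8 in LE, against 17280.2 in EE, though it was at 7968 in ME.

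Of 20 transfrags for permeases 8 rose and 5 fell, beside 35.1% and 35.3% of all named mRNAs. GAP1, the general amino acid permease, was at 709 in LE, against 105 in EE (log2 change 2.75), HIP1, a histidine permease, at 1504 in LE, against 189.6 in EE (log2 change 2.98), LYP1, for lysine, at 1286 in LE, against 501 in EE, and the urea carrier DUR3 at 4659.8 in LE, against 2394 in EE. GNP1 was the whole-gene exception. Their median of 0.72 turned to -0.03 after centring, with 5 rises and 6 falls. In purine and pyrimidine synthesis 6 of 22 transfrags rose and 7 fell. PYRE, orotate phosphoribosyltransferase, was at 856 in LE, against 249.8 in EE, and the main piece of PYRF, orotidine phosphate decarboxylase, at 488 in LE, against 47.2 in EE with 70.8% covered. PYR1, which joins the first steps of pyrimidine synthesis, was in 6 pieces that had log2 changes of -1.66 to -0.16. The list's median of -0.22 turned to 0.54 with mapped reads and to 1.31 when summed per gene.

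Most transfrags of cytosolic ribosomal proteins rose on the deposited scale. Of these 23 transfrags, all of mean level 10 or more, 14 rose and 3 fell, with a median log2 change of 1.53. Among all named mRNAs of that level 46.7% rose and 25% fell, with a median of 0.78. These shares depended on level. Of all mRNAs at levels of 100 to 1000, 66.0% rose and 9.25% fell, with a median of 1.83. At 1000 or more 38.2% rose and 19.6% fell, with a median of 0.39. Whether the list differed from mRNAs of like level was not tested. The list's median stayed positive under the other scalings (0.78 to 2.30), with 9 rises and 5 falls after centring. RS5 had the highest level, at 2982 in LE, against 1121 in EE (log2 change 1.41), RS12 was at 1930.4 in LE, against 174 in EE (log2 change 3.46), RL37A at 333 in LE, against 36.2 in EE (log2 change 3.17) and RS6 at 1647 in LE, against 568 in EE. A whole-gene copy of RL9B fell, at 13.9 in LE, against 38.2 in EE, as did pieces of RS11B (22.5 in LE, against 104 in EE) and RS20 (41.1 in LE, against 125 in EE). How reads of similar ribosomal protein copies were assigned was not tested. In ME the median log2 change against EE was 2.04. Mitochondrial ribosomal proteins had 8 rises and 5 falls in 15, for example RT05 at 468 in LE, against 155 in EE and IMG1 at 5.22 in LE, against 31.5 in EE.

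Genes for building ribosomes changed in both directions. Of 82 transfrags for ribosome assembly and RNA polymerase I, 24 rose and 32 fell, with a median of 0.08, and at a mean level of 10 or more 22 of 48 rose and 8 fell, with a median of 0.88 beside 0.78 over all named mRNAs of that level. Of the 14 that covered their gene 2 rose and 2 fell. FBRL, fibrillarin, had the highest level and fell, at 740.1 in LE, against 2371 in EE (log2 change -1.68), and so did RRP1, at 99.3 in LE, against 209 in EE. HAS1, a DEAD-box helicase, at 294 in LE, against 35.7 in EE (log2 change 3.01), and UTP23, at 549.5 in LE, against 211 in EE, rose. Most whole-gene members stayed within 2-fold, such as NSA2 (859 in LE, against 460.0 in EE), LTV1 (779 in LE, against 521 in EE) and EBP2 (333 in LE, against 324 in EE). The list's median became 0.85 with mapped reads, -0.11 with equal summed levels and -0.67 after centring.

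Translation factors were divided, with 7 rises and 6 falls in 22 transfrags and a median of 0.40 that turned to -0.35 after centring. EF1A, the elongation factor that brings aminoacyl-tRNA, was at 112409 in LE, against 69681 in EE (log2 change 0.69), IF5A1 at 2370.1 in LE, against 533 in EE (log2 change 2.15), and EIF3C rose, at 1147 in LE, against 232 in EE (log2 change 2.30). The helicase IF4A fell, at 49.2 in LE, against 217 in EE (log2 change -2.12), as did IF2G, a subunit of the factor that carries the initiator tRNA, at 35.1 in LE, against 157 in EE. All 3 pieces of GCN20, a co-activator of the Gcn2 kinase, fell. Of 19 transfrags for cytosolic aminoacyl-tRNA synthetases 10 rose and 7 fell, and summed per gene 8 of 10 rose and 1 fell. SYRC was at 1913 in LE, against 215 in EE (log2 change 3.15) and SYNC at 500.3 in LE, against 217 in EE.

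Proteasome genes had the lowest median of the 31 lists. None of 15 transfrags rose and 11 fell, with a median log2 change of -1.81, against -0.17 over all named mRNAs. At a mean level of 10 or more 10 of 12 fell, with a median of -1.85 beside 0.78 over all named mRNAs of that level. Of the 6 that covered their gene 5 fell. Summed per gene, 8 of 10 fell and none rose. PRS7, an ATPase of the regulatory particle, had by far the highest level, at 9608 in LE, against 22011 in EE (log2 change -1.20, counting SE 0.01). RPN11, the deubiquitinase of the lid, was at 131 in LE, against 551 in EE (log2 change -2.06), PRS6B, another ATPase, at 23.1 in LE, against 83.3 in EE (log2 change -1.81), and PSB3, a subunit of the core, at 17.1 in LE, against 72.6 in EE (log2 change -2.02). The members that stayed within 2-fold were PSA6, at 684 in LE, against 1081 in EE, RPN13, at 268 in LE, against 161 in EE, and short pieces of PRS6A and PSB7. With mapped reads the median was -1.04, and 2 transfrags rose and 8 fell.

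Chaperone genes mostly moved the other way, with 9 rises and 2 falls in 14 transfrags and a median of 1.65. At a mean level of 10 or more 9 of 13 rose and 1 fell, beside 46.7% and 25% of all named mRNAs of that level. Of all mRNAs at levels of 100 to 1000, 66.0% rose and 9.25% fell, with a median of 1.83, and a difference from mRNAs of like level was not tested. After centring the list had 7 rises and 3 falls, with a median of 0.90. STI1, a cochaperone that links Hsp70 to Hsp90, was at 2153 in LE, against 113 in EE (log2 change 4.24), HSP77, named after a mitochondrial Hsp70, at 6523 in LE, against 439.6 in EE (log2 change 3.89), and HSP78, the mitochondrial disaggregase, at 661 in LE, against 166 in EE. HSP73, a cytosolic Hsp70, had the highest level and fell, at 8705 in LE, against 20062 in EE (log2 change -1.20). Of 6 transfrags for defence against oxidants 4 rose, led by TRXB, while CATA, the peroxisomal catalase, was at 594 in LE, against 526 in EE. Autophagy had 2 rises and 5 falls in 12. ATG20 rose, at 2693 in LE, against 515 in EE, ATG8, the ubiquitin-like protein of the autophagosome, fell, at 79.6 in LE, against 200.3 in EE (log2 change -1.32), and ATG3, which conjugates it, was at 1634 in LE, against 2979 in EE.

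Histone genes did not move together. H3, at 5813 in LE, against 1012 in EE (log2 change 2.52), H4, at 2350.4 in LE, against 584 in EE (log2 change 2.01), and the variant H2AZ, at 278 in LE, against 54.1 in EE (log2 change 2.34), rose, whereas H2A, at 103 in LE, against 467 in EE (log2 change -2.17), and H2B2, at 27.4 in LE, against 278 in EE (log2 change -3.29), fell. All 5 covered at least 90% of their gene, and the directions were the same under the 3 other scalings. H2A and H2B2 had already fallen to 217 and 84.4 in ME. H3 and H4 are consecutive gene models, as are H2A and H2B2, so the members are not separate loci. How reads of similar histone copies were assigned was not tested. The replication, kinetochore, peroxisome and meiosis lists changed the sign of their median with scaling. DNA replication genes gave 13 rises and 12 falls in 32 transfrags, but 11 rises and 3 falls in the 19 of mean level 10 or more (median 1.83). RFC3, of the clamp loader, was the whole-gene member and fell, at 131 in LE, against 622 in EE, while PCNA, the clamp, was at 120.4 in LE, against 13.8 in EE with 82% covered and CDC6, the licensing factor, at 269 in LE, against 26.9 in EE with 80.6%. Genes of the kinetochore and spindle had 6 rises and 8 falls in 18, and 6 and 4 in the 11 of mean level 10 or more. SGO1, shugoshin, rose, at 280.2 in LE, against 45.6 in EE, and ASK1, of the DASH complex, fell, at 244 in LE, against 777 in EE.

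The cell wall list had a median of -0.03, whose sign changed with scaling, and of its 12 transfrags that covered a gene 8 rose and 2 fell. EXG, an exo-glucanase, was at 23680 in LE, against 1953 in EE (log2 change 3.60), BGL2, an endo-glucanase of the wall, at 15416 in LE, against 3109 in EE (log2 change 2.31), SCW4 at 5072 in LE, against 375 in EE, SIM1 at 3784 in LE, against 525 in EE and the transglycosidase GAS1 at 3373 in LE, against 485 in EE. GAS3, of the same family as GAS1, fell, at 46.6 in LE, against 214 in EE (log2 change -2.17). Iron and copper uptake had 6 rises and no fall in 11 transfrags, and 4 rises and 2 falls after centring. Summed per gene 4 of 8 rose, beside 41.7% of all named genes. The copper carrier CTR1 was at 25892 in LE, against 9729.6 in EE (log2 change 1.41), ARN1 had a log2 change of 4.18, and the multicopper oxidase FET3 rose in both pieces, the longer at 559 in LE, against 25.1 in EE (log2 change 4.42) with 62.4% covered. The iron regulator AFT1 itself was at 1814 in LE, against 2050.0 in EE. Phosphate carriers ran the opposite way: none of 6 transfrags rose and 4 fell, with PHO84, the high-affinity carrier, at 8.57 in LE, against 65.6 in EE and PHO91, a vacuolar one, at 854 in LE, against 2828 in EE. PHO87 was the whole-gene member and stayed within 2-fold, at 2301 in LE, against 3610.1 in EE. With mapped reads 2 of the 6 phosphate transfrags fell and none rose.

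Smaller lists rested mostly on pieces of genes. Sterol synthesis had 4 rises and 6 falls in 12 transfrags and a negative median, which became 0.37 when levels were summed per gene. FPPS, farnesyl diphosphate synthase, was at 2273 in LE, against 4401 in EE, and THIL, which starts the pathway, at 681 in LE, against 99.5 in EE with 82.6% covered. Mating genes had 7 rises and 3 falls in 11, of which GPA1, the G-protein subunit of the pheromone pathway, covered its gene, at 185 in LE, against 75.3 in EE (log2 change 1.29), and the transcription factor STE12 was at 772 in LE, against 255 in EE with 75.6% covered. The pheromone gene MFAL1 had 1 read in EE, and its level in LE of 86.0 was 64.6 times as high (95% counting interval 11.6 to 2553). Peroxisome and fatty acid oxidation genes had 4 rises and 5 falls in 14, and 4 and 1 in the 9 of mean level 10 or more, with FOX2, of beta-oxidation, at 1844 in LE, against 934 in EE, just under 2-fold, and PEX29 at 659 in LE, against 131 in EE. Genes of meiosis and spores had 5 rises and 6 falls in 14, and 4 and 0 in the 6 of mean level 10 or more, with DIT1, of the spore wall, at 49.8 in LE, against 10.8 in EE and SSP1 at 330.2 in LE, against 172 in EE.

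**Figure D3:**
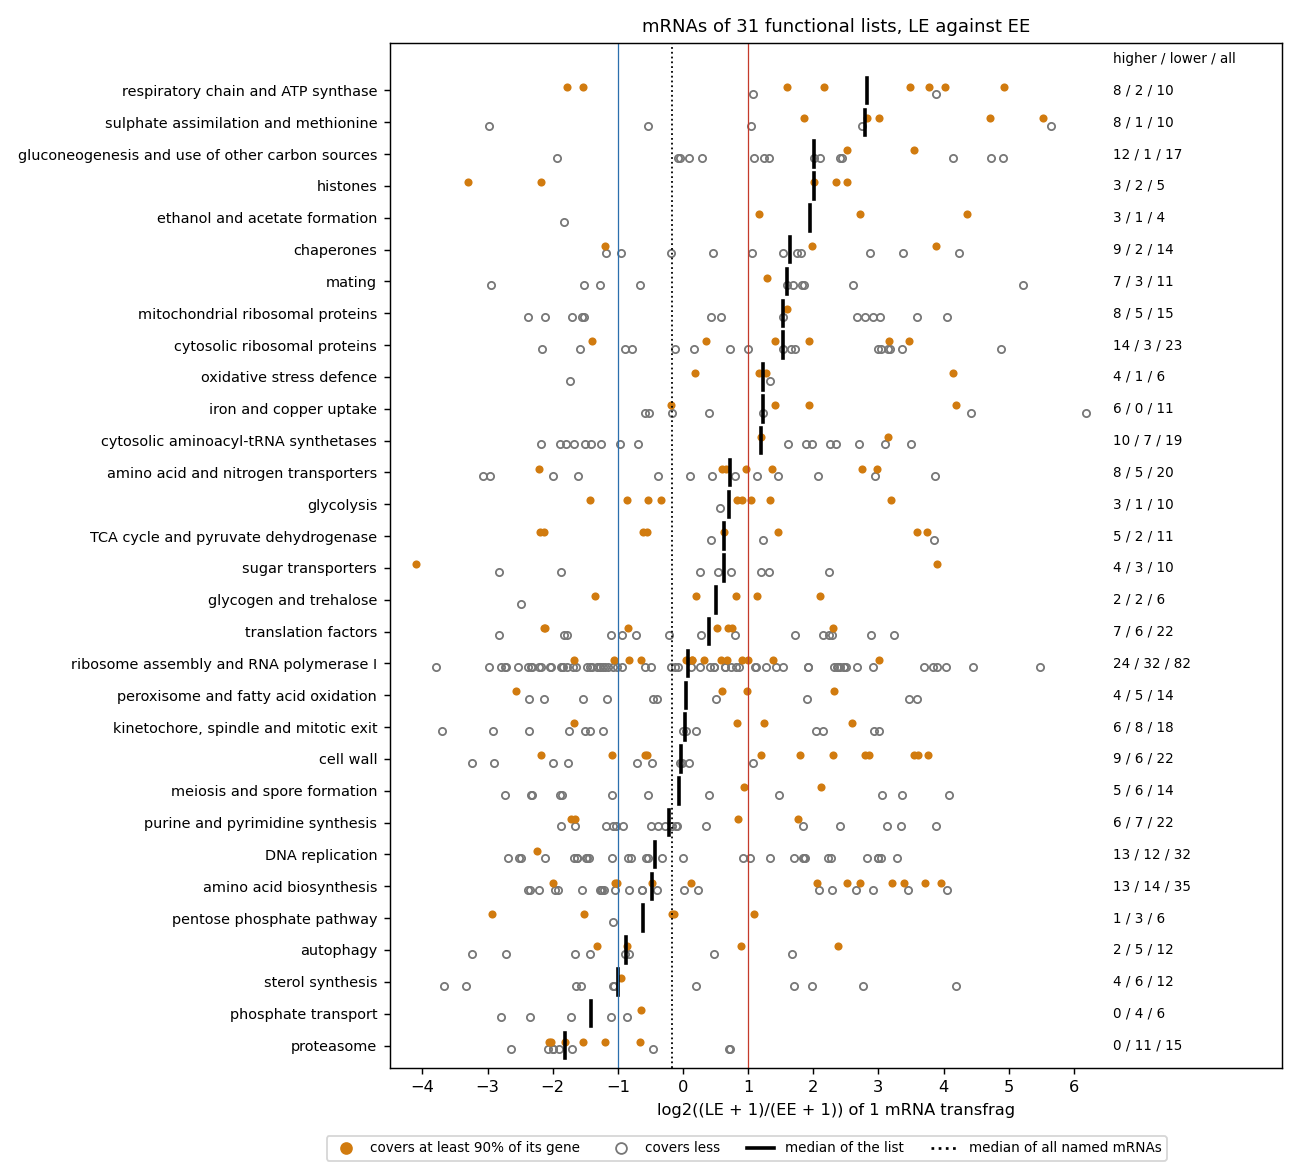
log2((LE + 1)/(EE + 1)) of each mRNA transfrag (points, filled where it covers at least 90% of its gene) in the 31 functional lists (rows, ordered by median), with the median of the list as a black bar, the median of all 2246 named mRNAs as a dotted line, and red and blue lines at 2-fold higher and lower. The respiratory and sulphur lists lie at the top with medians of 2.82 and 2.79, and the proteasome list at the bottom with -1.81.

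The mRNAs with the highest deposited levels, which are not divided by length, changed in both directions. Of the 10 highest only PGK and transfrag26945 changed by at least 2-fold, and among the 100 transfrags of highest mean level 27 rose and 30 fell, with a median of -0.17. PGLR, a polygalacturonase, the pectin-degrading enzyme that K. marxianus secretes, was at 191470 in LE, against 146508 in EE (log2 change 0.39), above every other transfrag in LE. In EE the first place belonged to transfrag14162 (contig 106, 887855 to 889634), an mRNA with no homolog name here, at 129417 in LE, against 247092 in EE (log2 change -0.93). A second unnamed mRNA, transfrag26945 (contig 114, 524646 to 525946), was at 47265 in LE, against 119908 in EE (log2 change -1.34), and 3 more lay between -0.79 and -0.05.

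On the deposited scale most of the change had been made by ME, though part of the transfrags had gone past their LE level there. Of the 2904 transfrags that rose with a mean level of at least 10, 2462 (84.8%) were also at least 2-fold higher in ME than in EE, and 229 (7.89%) were a further 2-fold higher in LE than in ME. Of the 1557 that fell, 1138 (73.1%) were also at least 2-fold lower in ME, and 339 (21.8%) fell by a further 2-fold in LE. The median share of the log2 change that was reached in ME was 84.0% for rises and 79.1% for falls. In ME 545 of the rises (18.8%) and 472 of the falls (30.3%) were past their LE level. Among these falls, PGK was at 42094 in ME, against 61544 in LE, and PRS7 at 4874 in ME, against 9608 in LE. All 3 comparisons draw on the same samples, so these shares are not independent of each other, and with mapped reads the share for falls was 33.1%. Side by side, the median size of the log2 change over mRNAs of that level was 1.74 for LE against EE, 1.48 for ME against EE and 0.55 for LE against ME, and 26.6%, 32.3% and 84.9% of them stayed within 2-fold in these comparisons. KHT2 went on falling, with 1384, 203 and 80.1 in EE, ME and LE, and so did H2B2, with 278, 84.4 and 27.4. TCTP had reached 1601 in ME, above its level in LE. ADH3 went on rising, with 4146, 12788 and 27399 in EE, ME and LE.

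**Figure D4:**
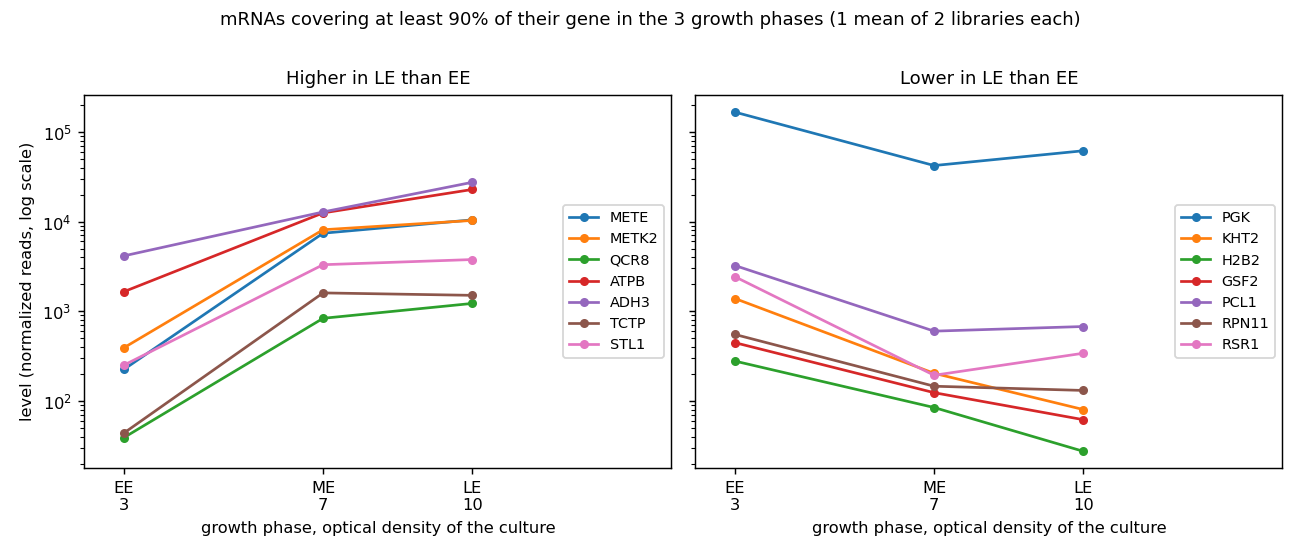
Level (normalized reads, log axis, 1 mean of 2 libraries per point) in EE, ME and LE, placed by optical density, of 14 mRNAs that cover at least 90% of their gene, chosen among those named in the text, 7 higher (left panel) and 7 lower (right panel) in LE than in EE. Most lines take their larger step between EE and ME, while KHT2, H2B2 and ADH3 go on in LE.

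How often antisense lancRNAs rose over rising and over falling mRNAs depended on the level limit. In 2374 pairs on opposite strands with an overlap of at least 1 bp (2272 lancRNAs, 1888 mRNAs), the lancRNA rose in 409 of the 1146 pairs with a rising mRNA (35.7%), in 146 of the 424 with a falling mRNA (34.4%) and in 366 of the 804 others (45.5%). It fell in 26.7% of pairs with a rising mRNA and in 35.6% of pairs with a falling one. Across these pairs, which share libraries and are not independent, the changes had a Pearson's r of 0.02. With a mean level of at least 10 in both members (1059 pairs), the lancRNA rose in 52.7% where the mRNA rose, in 64.5% where it fell and in 60.8% of the others, beside 56.8% of all lancRNAs of that level, and r was -0.07. With mapped reads, over all pairs, these shares were 51.6% of 1461 with a rising mRNA and 36.9% of 187 with a falling one.

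Single pairs went in opposite directions by a wide margin (examples picked with their values already seen). The lancRNA across the proteasome gene PRS7 was at 791 in LE, against 40.5 in EE (log2 change 4.25, counting SE 0.23), while the mRNA fell at 9608 in LE, against 22011 in EE over an overlap of 1388 bp. The lancRNA across PMA1, the plasma membrane proton pump, overlapped it by 4202 bp and was at 1005 in LE, against 55.6 in EE (log2 change 4.15), while its mRNA was at 8645 in LE, against 18760.2 in EE (log2 change -1.12). At SKT5, which activates chitin synthesis, the lancRNA had no read in EE and was at 30.1 in LE, at least 7.51-fold higher, while the mRNA was at 1100 in LE, against 4879 in EE. The reverse was found at HOT1, a transcription factor of the osmotic response in S. cerevisiae, with a lancRNA at 0.88 in LE, against 34.1 in EE, and an mRNA at 498 in LE, against 117 in EE (log2 change 2.08). At RAS2, a Ras GTPase, the lancRNA was at 1.68 in LE, against 38.0 in EE, and the mRNA at 67.7 in LE, against 6.12 in EE.

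**Figure D5:**
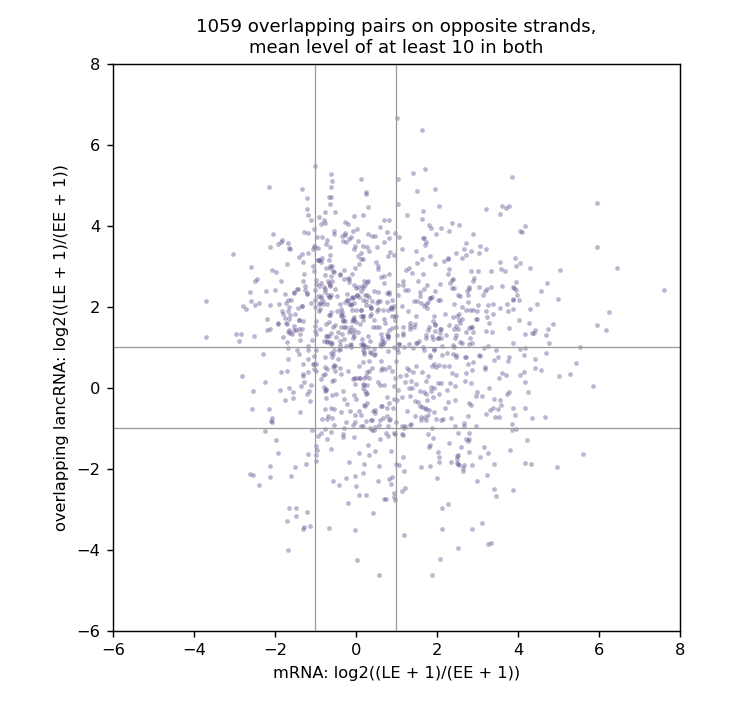
Change of the lancRNA (vertical) against change of the overlapping mRNA (horizontal), both as log2((LE + 1)/(EE + 1)), for the 1059 pairs with a mean level of at least 10 in both members, with lines at 2-fold. The points fill both upper corners, where 233 pairs had both rising and 107 a rising lancRNA over a falling mRNA.

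The largest changes of noncoding transfrags lay partly at the position of RNA genes. Strands were not compared there, so whether the signal was that of the RNA gene or of its opposite strand was not tested. Per the paper, rRNA was depleted before sequencing. The lancRNA with the largest fall overlapped the small-subunit rRNA gene (contig 107, 2572 to 4369) and was at 203 in LE, against 6914 in EE, with 8410.3 in ME. A sancRNA that overlapped the large-subunit rRNA gene of the same contig was at 1.78 in LE, against 114 in EE. A sancRNA that overlapped snR4, a small nucleolar RNA gene, rose, at 101 in LE, against 5.58 in EE (log2 change 3.96). Of 61 lancRNAs that overlap an RNA gene 20 rose and 18 fell, but they held 35.8% of the summed lancRNA level in LE and 12.1% in EE. Elsewhere the lancRNA opposite MGA1 had no read in LE and was at 24.4 in EE, at least 20.5-fold lower in LE, that opposite LTV1 had 3 reads in LE (1.09 in LE, against 50.8 in EE, 46.6 times as high in EE with a 95% counting interval of 15.95 to 226), and the one opposite HGT1 had no read in EE and was at 64.5 in LE, at least 16.1-fold higher. Among lincRNAs, transfrag00131 (contig 71, 600 to 900) was at 2199.6 in LE, against 23.7 in EE (log2 change 6.48, counting SE 0.29), and transfrag16215 (contig 106, 1145726 to 1146313) at 14.7 in LE, against 274 in EE (log2 change -4.13). Among sincRNAs, transfrag00142 (contig 75, 106 to 292) was at 248 in LE, against 17.6 in EE and transfrag29653 (contig 114, 897301 to 897483) at 4.44 in LE, against 68.2 in EE.

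On the 11 contigs with at least 100 mRNAs of mean level 10 or more, the median log2 change ran from 0.40 on contig 91 to 1.06 on contig 106, and between 42.2% and 51.3% of them rose. The changes of neighbouring mRNAs up to 500 bp apart had a Pearson's r of 0.15 over 252 convergent, 0.11 over 95 divergent and 0.15 over 170 tandem pairs (across pairs of transfrags from the same libraries, as a description).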

How the data were processed

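Strand-specific RNA-seq of K. marxianus KM7 was used in 3 growth phases with 2 libraries each. Per the submitters' processing notes, CASAVA 1.4 and DESeq were used. The authors assembled transfrags, divided read counts by size factors and deposited a normalized signal per transfrag, averaged over the 2 libraries of a phase and not divided by length. The depth of 1 read was recovered from steps between low levels (tolerance 0.001). Per the labels the libraries of a phase are biological replicates.

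The change was log2((LE + 1)/(EE + 1)), and at least 2-fold was counted. With 1 mean per phase no test was run. Counting intervals are 95% and cover counting error only. Names came from the homolog table, of which 1998 entries were held. Named were the 15 largest rises and falls of named mRNAs (1 transfrag per gene, that of the highest mean level) and the 3 of each noncoding class at a mean level of at least 10, the 10 highest mRNAs and members of 31 lists. Whole-gene transfrags and antisense examples were picked with their values already seen. Members and lists were chosen with earlier results of these data known. Antisense pairs overlapped by at least 1 bp. Python 3.11.15, NumPy 2.4.6, pandas 2.3.3, SciPy 1.17.1 and Matplotlib 3.10.9 were used, and the scripts were tested on simulated data. Alternatives were other pseudocounts, level and fold limits, scalings, sums per gene and leaving out RNA genes.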

Additional observations from a re-analysis of the deposited data

How the results depend on the processing

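Each phase had 1 deposited mean, so leaving out each replicate in turn could not be done. No paired analysis was possible because the levels of single libraries were not used here. Over all transfrags, falls numbered 6110 as reported, 3332 with a pseudocount of 5, 1557 at a mean level of at least 10, 502 at a mean level of at least 50 (with 1869 rises) and 3807 with mapped reads. A 4-fold limit left 2215 rises and 3014 falls. Centring on the median gave 2604 rises and 8078 falls, and mapped reads gave 5215 rises. Rises made up 38.7% of changes as reported, 48.0% with a pseudocount of 5, 65.1% at a mean level of at least 10 and 78.8% at a mean level of at least 50.

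Among named mRNAs, falls numbered 793 as reported, 399 at a mean level of at least 10, 417 with mapped reads and 418 summed per gene. Restricting to transfrags that cover at least 90% of a gene, an alternative chosen after seeing the data, left 223 rises and 103 falls. With a mean level of at least 10 in both members, lancRNAs rose over 64.5% of falling mRNAs, against 34.4% over all levels. The median share of a fall reached in ME was 79.1%, and 33.1% with mapped reads. Summed per gene, list medians turned from negative to 0.37 for sterol synthesis, 0.97 for amino acid synthesis, 1.31 for purine and pyrimidine synthesis and 0.67 for meiosis. The cause of these shifts was not tested. EE had fewer reads than LE, which limits low levels there most.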
